A study of Mus musculus with 8 samples.

Results

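Tumours of the small intestine were compared with non-tumour mucosa in mice whose gene for the protease inhibitor HAI-1, Spint1, was floxed and exposed to Cre in the intestinal epithelium, called HAI-1 deficient here. The comparison took the 2 arrays titled Tumor_KO and the 2 titled Nontumor_KO, 4 of the 8 arrays of the series, and covered 13119 of the 18194 genes that had a probe set of their own. Tumours and mucosa both came from mice that carried Apc (Min/+), Spint1 (flox/flox) and Vil-Cre. The 4 other arrays, 2 of tumours and 2 of mucosa from mice with the same Apc and Spint1 alleles but no Cre, entered the same fit and are called HAI-1 intact here. All mice were C57BL/6, carried the Min mutation of Apc and floxed Spint1 alleles, and were fed the AIN-76 diet. Cre was driven by the villin promoter, which is active in intestinal epithelium, so that stromal and immune cells of every sample kept an intact Spint1. The labels give no age, and leave unsaid whether a mouse gave more than 1 sample. Every p-value therefore measures only the spread between these samples, and the small number of arrays limits the precision of each value.

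HAI-1 is a membrane-bound inhibitor of serine proteases such as matriptase and of the activator of hepatocyte growth factor. Apc is part of the complex that marks beta-catenin for destruction, and in Min mice intestinal tumours arise when the remaining Apc allele is lost and Wnt target genes stay on. The normal villus is covered by absorptive enterocytes, whose brush border carries digestive enzymes and transporters, while stem cells and dividing cells lie in the crypts.

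Signal is given on the log2 scale, 1 value per probe set and array, and probe sets whose mean signal lay under the 40th percentile, a filter value of 5.20, were left out. The mean was taken over all 8 arrays, so a gene dim in mucosa passed only where other arrays were brighter. What part this has in the counts of positive values in the gene lists below was not tested. Across genes, which are not independent replicates, Pearson's r was 0.947 between the 2 tumour arrays, 0.962 between the 2 mucosa arrays and 0.913 to 0.92 between tumour and mucosa arrays. Poly-A spike-in controls were brighter on the second tumour and the second mucosa array (8.12 and 8.51) than on the first ones (6.89 and 6.92), so that each pair of same-numbered arrays held 1 tumour and 1 mucosa sample. The 18S ribosomal RNA control read 10.07 and 7.61 on the tumour arrays, against 8.02 and 13.63 on the mucosa arrays. The Gapdh 3' to 5' ratio was 0.885 and 1.35 on the tumour arrays, against 0.876 and 0.975 on the mucosa arrays, whereas the second array of HAI-1 intact tumours stood at 25.9. Markers of intestinal epithelium were bright in both tissues. Epcam read 14.58 and 14.58 in tumours, against 14.42 and 14.42 in mucosa. Vil1, which encodes the microvillus protein villin, read 13.80 and 13.85 in tumours, against 14.63 and 14.31 in mucosa (-0.65 ± 0.23, adjusted p = 0.145). Spint1 itself read 11.76 and 11.84 in tumours, against 12.46 and 12.25 in mucosa. In HAI-1 intact mice it read 12.75 and 13.06 in tumours, against 12.87 and 13.00 in mucosa, so that all 4 deficient arrays lay below all 4 intact ones but kept a bright signal. Its difference between the tissues of deficient mice of -0.55 ± 0.24 was not called (adjusted p = 0.205), and where its probe set lies in the gene, inside or outside the deleted part, is not known here. Apc differed by -0.28 ± 0.28 at its brightest probe set (adjusted p = 0.577), while its 3 probe sets past the filter ranged from -0.95 to -0.14.

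Tumours of HAI-1 deficient mice had lower levels of genes for digestion, absorption and drug metabolism, and higher levels of Wnt target, stomach-type, connective tissue and mast cell genes, than mucosa of the same genotype. With limma, 551 of 13119 genes were called at a Benjamini-Hochberg adjusted p under 0.05, or 4.2%. Of these, 321 were higher in tumours (2.45%) and 230 were lower (1.75%). The median change of the genes that rose was 1.72 log2, or 3.29-fold, and that of the genes that fell was -1.77 log2, or 3.41-fold. All 551 changed by at least 1 log2, and on all of them both tumour arrays lay on the same side of both mucosa arrays. Such a lack of overlap was seen for 7273 genes, or 55.4% of those tested, so that it sets few genes apart with 2 arrays per group. An unadjusted p under 0.05 was reached by 3297 genes. An exact permutation test of 2 arrays against 2 cannot go below p = 0.333. The median change over all tested genes was 0.18 log2. The same-numbered pairs gave medians of 1.73 and 1.67 log2 for the rises and -1.74 and -1.70 for the falls. Since the arrays of the 551 genes did not overlap between tissues, both pairs had to give the same sign.

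The number of calls rested on the spread pooled over all 8 arrays. It was 0 in a fit to the 4 arrays of HAI-1 deficient mice alone, 0 without the filter on dim probe sets and 0 with the replicate number as a block. These fits leave the change of each of the 551 genes as it was, so that their direction could not differ. Without the first or the second deficient mucosa array it was 4 and 0, without the first or the second deficient tumour array 18 and 73, without either intact mucosa array 24 and without either intact tumour array 346. Leaving out the first or the second array of intact tumours gives the same fit for this comparison, so calls stated below without the second one are also those without the first. The lists below hold 133 called genes, of which 83 remained without an intact tumour array and 8 without an intact mucosa array. Without the first or the second deficient mucosa array 1 and 0 of the 133 remained, and without the first or the second deficient tumour array 3 and 23. With quantile normalization 199 genes were higher and 217 lower, so that 47.8% of the calls were rises, against 58.3% in the values as deposited. Over all genes tested, 2.45% were called higher and 1.75% lower, and the counts in each list below stand against these shares. Since 4.2% of all genes tested were called, neither 0 calls nor 1 call sets a short list apart. Change values give the tumour mean minus the mucosa mean with the standard error of the fit, from 2 arrays per group.

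**Figure D1:**
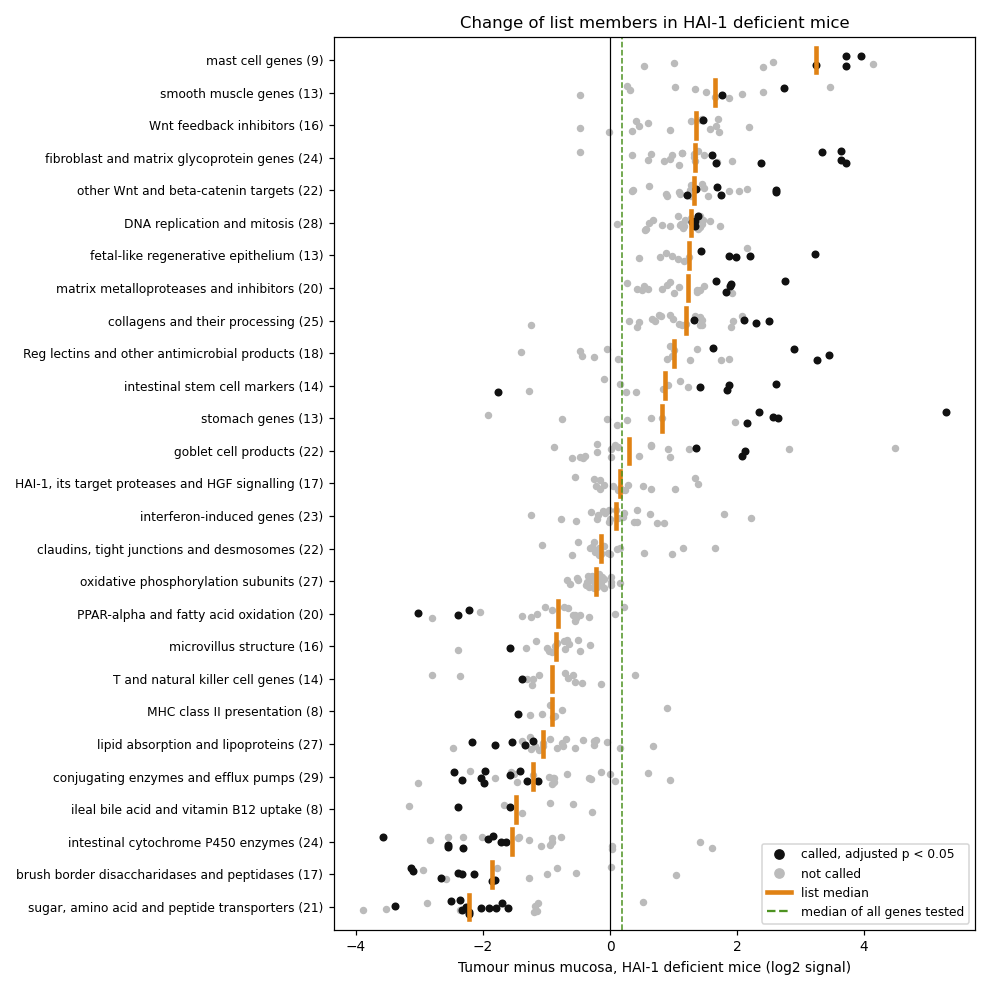
Change of each tested member of 27 gene lists between tumours and mucosa of HAI-1 deficient mice (log2 signal, 2 arrays per group). Each point is 1 gene, black where called and grey where not, the orange bar is the list median, the dashed line the median of all genes tested (0.18), and the number of tested members stands in brackets; lists of transporters, brush border enzymes and cytochrome P450 enzymes lie left of 0, and mast cell, smooth muscle, Wnt, fibroblast and cell cycle lists lie right of it.

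Changes are ranked here with array values under the filter value raised to it. The largest rise by that order was that of Tff2, a trefoil peptide that protects the stomach lining. It read 14.29 and 11.90 in tumours, against 7.89 and 7.72 in mucosa, a change of 5.29 ± 0.81 log2 (39.2-fold, adjusted p = 0.0287). Both tumour arrays lay far above both mucosa arrays, but they differed from each other by more than 2 log2, and the change was 6.40 in the first pair and 4.19 in the second. Serpina3n, a serine protease inhibitor secreted in inflammation, read 10.60 and 9.47 in tumours, against 6.08 and 2.89 in mucosa. Since the second mucosa array lay under the filter value of 5.20, the rise was at least 21.0-fold (adjusted p = 0.0309). The fitted change of Serpina3n, which uses the dim value as it stands, was 5.55 log2, above that of Tff2, so that which of the 2 rose more is not settled. Nptx2, a secreted pentraxin known from synapses, read 10.72 and 10.18 in tumours, against 6.47 and 6.53 in mucosa (3.94 ± 0.31, 15.4-fold, adjusted p = 0.00939). Its arrays agreed closely within each tissue, and its dimmer probe set changed less, by 1.52. Tmem45a, a transmembrane protein gene, read 10.92 and 10.47 in tumours, against 6.73 and 7.24 in mucosa (3.71 ± 0.36, 13.1-fold, adjusted p = 0.0222). Otop2, a proton channel gene, read 10.66 and 10.47 in tumours, against 7.38 and 6.64 in mucosa (3.55 ± 0.38, 11.7-fold). Only genes without overlap of the tumour and mucosa arrays were ranked, so the separation of these genes on every array follows from the choice.

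Proteins of blood plasma and secretions were among the next largest rises. A2m, the protease inhibitor alpha-2-macroglobulin, read 10.11 and 11.23 in tumours, against 6.69 and 7.51 in mucosa (3.57 ± 0.66, 11.9-fold, adjusted p = 0.0367). Ltf, the iron-binding protein lactoferrin, read 11.43 and 10.28 in tumours, against 7.62 and 7.20 in mucosa (3.45 ± 0.71, 10.9-fold, adjusted p = 0.0454). Ano1, a calcium-activated chloride channel, rose 10.4-fold by its brighter probe set (3.38 ± 0.39) and by 1.72 log2 by its other one. Mgp, which encodes matrix Gla protein, an inhibitor of calcification, rose at least 15.3-fold (adjusted p = 0.0287), and the cartilage collagen gene Col9a3 at least 10.7-fold (adjusted p = 0.0303). The other genes among the 15 largest rises were the mast cell protease Mcpt2 and the matrix and fibroblast genes Grem1, Igfbp5, Postn and Lum.

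**Figure D2:**
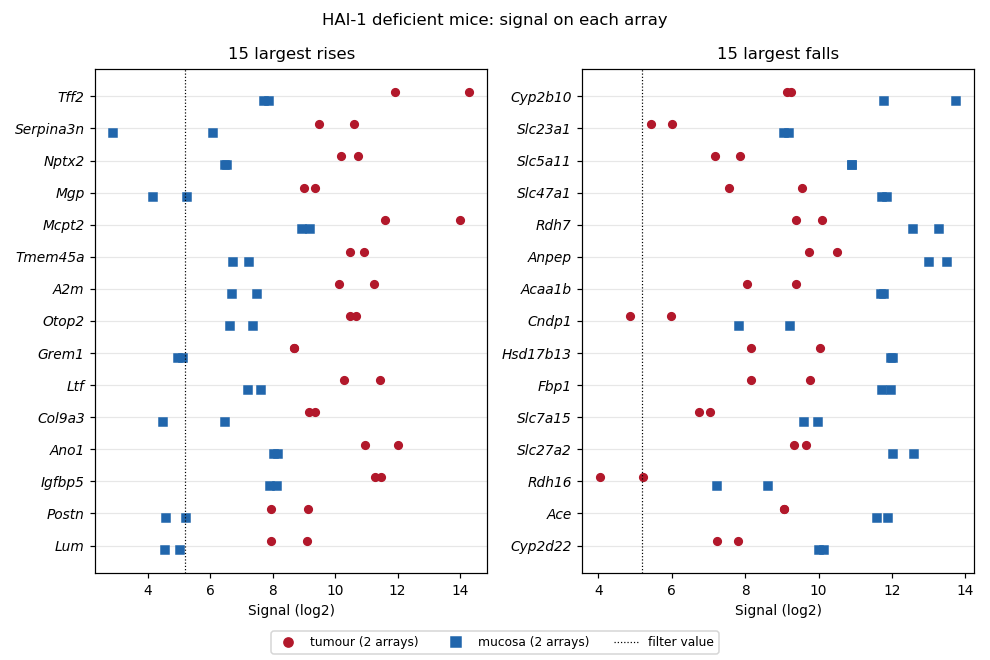
Signal (log2) on the 2 tumour arrays (red circles) and the 2 mucosa arrays (blue squares) of HAI-1 deficient mice for the 15 largest rises (left) and the 15 largest falls (right), with the filter value of 5.20 as a dotted line. Red and blue points are separate for all 30 genes by the rule that chose them, and the tumour arrays lie well apart from each other for Tff2, Mcpt2 and Slc47a1.

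The largest falls were in genes that handle nutrients, vitamins and foreign compounds. Cyp2b10, a cytochrome P450 that oxidises drugs, read 9.14 and 9.26 in tumours, against 11.79 and 13.75 in mucosa (-3.57 ± 0.55, 11.9-fold lower, adjusted p = 0.0291). The tumour arrays were alike and the mucosa arrays were not, so that the change was -2.66 in the first pair and -4.49 in the second. Slc23a1, the sodium-dependent vitamin C transporter, read 5.42 and 6.00 in tumours, against 9.07 and 9.20 in mucosa (-3.43 ± 0.58, 10.8-fold lower, adjusted p = 0.0313). In tumours it thus stood close to the filter value. Slc47a1, which exports organic cations, read 7.57 and 9.56 in tumours, against 11.87 and 11.74 in mucosa (-3.24 ± 0.59, adjusted p = 0.0352). Fbp1, the fructose-bisphosphatase of gluconeogenesis, read 8.16 and 9.76 in tumours, against 11.73 and 11.98 in mucosa (-2.89 ± 0.49). Hsd17b13, an enzyme of lipid droplets, read 8.16 and 10.03 in tumours, against 12.03 and 11.98 in mucosa (-2.91 ± 0.57, 7.51-fold lower, adjusted p = 0.0402). For both genes the second tumour array was over 1 log2 brighter than the first. Slc27a2, a fatty acid transporter and acyl-CoA synthetase, read 9.32 and 9.65 in tumours, against 12.03 and 12.61 in mucosa (-2.83 ± 0.37, 7.12-fold lower, adjusted p = 0.0268). By the rule that chose these 6 genes, no tumour array reached the level of a mucosa array. Rdh16, a retinol dehydrogenase, was at least 6.58-fold lower, with 1 tumour array under the filter value, and the amino acid transporter gene Slc7a15 was 7.43-fold lower.

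Sugar, amino acid and peptide transporters fell more widely than any other list examined. Of 21 tested members, 12 fell, 0 rose and 9 did not pass, against 1.75% of all genes tested, and the median change was -2.22 log2, against 0.18 over all genes. All 21 had tumour and mucosa arrays that did not overlap, against 55.4% of all genes tested, and 20 of them were lower in tumours. Slc5a11, a sodium-coupled inositol transporter, read 7.17 and 7.86 in tumours, against 10.90 and 10.90 in mucosa (-3.38 ± 0.65, 10.4-fold lower, adjusted p = 0.0393). Slc2a2, the glucose transporter GLUT2 by which sugars leave the enterocyte, read 10.74 and 12.13 in tumours, against 14.00 and 13.88 in mucosa (-2.50 ± 0.47, 5.67-fold lower, adjusted p = 0.0375). The tumour array that was brighter by over 1 log2 was the second one. Slc7a8, a subunit of a neutral amino acid exchanger, read 9.17 and 8.87 in tumours, against 11.13 and 11.59 in mucosa (-2.34 ± 0.39, adjusted p = 0.0309). Slc16a10, which carries aromatic amino acids, changed by -2.37 ± 0.49 (adjusted p = 0.0473). The 8 others that fell were Slc15a1, the main intestinal peptide transporter, Slc5a1, the sodium-glucose cotransporter SGLT1, the amino acid transporters Slc43a2, Slc6a19, Slc6a20a, Slc36a1 and Slc3a1, and the sugar transporter Slc5a9. Slc38a3 was the member with a positive value (0.52 ± 0.30, adjusted p = 0.316). Without the second intact tumour array, the one with the high Gapdh ratio, 9 of the 12 calls remained.

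Digestive enzymes of the brush border followed the transporters. Among 17 disaccharidases and peptidases 8 fell, 0 rose and 9 did not pass, with a median of -1.86 log2. Anpep, aminopeptidase N, read 10.49 and 9.74 in tumours, against 13.02 and 13.49 in mucosa (-3.14 ± 0.66, 8.84-fold lower, adjusted p = 0.0479). Mme, the peptidase neprilysin, read 10.67 and 10.74 in tumours, against 12.93 and 13.27 in mucosa (-2.40 ± 0.33, 5.26-fold lower, adjusted p = 0.0281). Ace, the angiotensin-converting enzyme, read 9.07 and 9.07 in tumours, against 11.60 and 11.88 in mucosa (-2.67 ± 0.47, 6.38-fold lower, adjusted p = 0.0338). For each of the 3 peptidases the gap between tissues was several times the gap between arrays of a tissue. The dipeptidase Cndp1 was at least 7.67-fold lower, with 1 tumour array under the filter value. Dpp4, Xpnpep2, Mgam and Treh also fell. Lactase, Lct, read 11.38 and 11.51 in tumours, against 13.82 and 14.22 in mucosa, yet its adjusted p of 0.0584 missed the threshold. Alkaline phosphatase Alpi read 14.55 and 14.83 in tumours, against 14.99 and 14.37 in mucosa (0.01 ± 0.35), so the groups overlapped. The 16 genes of microvillus structure all had negative values, with a smaller median of -0.85, and 1 of them, Epb41l3, fell (-1.58 ± 0.26). Sucrase-isomaltase had no probe set of its own in the annotation used here. Without the second intact tumour array 6 of the 8 enzyme calls remained.

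The promoter of Treh, which encodes the brush border enzyme trehalase, is shown because it was the window among the called brush border genes that held a binding motif of HNF4, a factor of enterocyte genes. The motif searched was CAAAGTCCA on both strands, in windows from 250 bases before to 50 bases after each gene start from RefSeq, build GRCm38.p6. It was found in 156 of 32851 windows, or 0.475%, and in 150 of 27025 genes, or 0.555%. Among brush border genes with a window it was in 1 of the 8 called and 3 of the 26 tested. The Treh window lies at chr9:44672983-44673282 on the plus strand, and capitals mark the motif, which reads on the minus strand.
Treh: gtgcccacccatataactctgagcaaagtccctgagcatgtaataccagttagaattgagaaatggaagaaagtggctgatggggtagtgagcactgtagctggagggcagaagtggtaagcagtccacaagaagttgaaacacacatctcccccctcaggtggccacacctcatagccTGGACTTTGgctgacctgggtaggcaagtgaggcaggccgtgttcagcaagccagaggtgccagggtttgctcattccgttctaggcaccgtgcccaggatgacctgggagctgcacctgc
Treh read 9.87 and 9.35 in tumours, against 11.83 and 11.12 in mucosa (-1.86 ± 0.39, 3.63-fold lower, adjusted p = 0.0473). The TCF/LEF motif CTTTGAT, searched the same way, was in 1225 of the 32851 windows, or 3.73%, and in 1160 of the 27025 genes, or 4.29%. Among Wnt genes with a window it was in 0 of the 4 called and 3 of the 23 tested. A match describes the letters of this window and no binding was measured.

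Enzymes that oxidise and conjugate drugs, bile acids and hormones fell as well. Of 24 intestinal cytochrome P450 genes 8 fell and 0 rose (median -1.54), and of 29 conjugating enzymes and efflux pumps 9 fell and 0 rose (median -1.21). Cyp2d22 read 7.23 and 7.81 in tumours, against 10.15 and 10.01 in mucosa (-2.56 ± 0.36, 5.91-fold lower, adjusted p = 0.0281). Cyp3a25 read 11.09 and 11.90 in tumours, against 13.50 and 14.12 in mucosa (-2.32 ± 0.37), and Cyp4v3, a fatty acid hydroxylase gene, fell 5.88-fold. On the conjugating side, Ces2a, a carboxylesterase, read 10.91 and 11.90 in tumours, against 13.97 and 13.76 in mucosa (-2.46 ± 0.36, adjusted p = 0.0281). Ugt2a3, a glucuronosyltransferase, read 9.64 and 9.48 in tumours, against 11.44 and 12.33 in mucosa (-2.33 ± 0.33). The glutathione transferase Gstm3 (-1.98 ± 0.24, adjusted p = 0.0254) and the sulfotransferase Sult1d1 (-2.03 ± 0.40, adjusted p = 0.0404) fell about as far. Some members of these families did not move down. Cyp1b1 had a positive value of 1.60 ± 0.55 (adjusted p = 0.133), and Cyp1a1 ranged from 5.14 to 9.33 over the 4 arrays with no separation of the tissues. Nr1i3, the nuclear receptor CAR that is known to drive Cyp2b genes in liver, read 8.35 and 9.41 in tumours, against 11.13 and 10.40 in mucosa (-1.89 ± 0.40, adjusted p = 0.0486). Of the P450 and conjugation calls, 7 of 8 and 6 of 9 remained without the second intact tumour array.

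Retinoid, lipid and bile acid genes gave a mixed picture. Rdh7, a retinol dehydrogenase, read 9.38 and 10.10 in tumours, against 12.56 and 13.29 in mucosa (-3.19 ± 0.37, 9.12-fold lower, adjusted p = 0.0237), and the change was -3.19 in each pair. Adh4 (-2.20 ± 0.37) and the carotenoid-cleaving Bco2 (-1.77 ± 0.25) fell too, whereas the retinoic acid receptor gene Rarb rose. Rarb read 7.97 and 9.05 in tumours, against 6.18 and 5.98 in mucosa (2.43 ± 0.37, 5.39-fold, adjusted p = 0.0287). Stra6, a receptor for retinol-binding protein, rose by 1.23 ± 0.26, which makes 2 rises and 3 falls among 17 retinoid genes. Of 27 genes of lipid absorption and lipoproteins 5 fell and 0 rose (median -1.05). The sterol exporter subunit Abcg5 read 10.72 and 11.26 in tumours, against 13.02 and 13.32 in mucosa (-2.18 ± 0.34, adjusted p = 0.0297), and its partner Abcg8 changed by -1.81 ± 0.36. The cholesterol uptake gene Npc1l1 (-1.55 ± 0.29) and Mttp, which loads lipid onto lipoproteins (-1.34 ± 0.24), also fell. Of 8 ileal genes of bile acid and vitamin B12 uptake Amn (-2.40 ± 0.52) and Slc51a (-1.57 ± 0.33) fell, and of 20 PPAR-alpha and fatty acid oxidation genes Acaa1b (-3.02 ± 0.50), Angptl4 (-2.39 ± 0.52) and Acot12 (-2.23 ± 0.42) fell. Oxidative phosphorylation subunits, cholesterol synthesis genes and circadian clock genes had 0 calls by limma among 27, 17 and 17 members, with medians of -0.22, 0.17 and -0.45, the last of which was -0.16 without the first deficient tumour array.

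In bulk tissue, fewer cells of a type and less RNA per cell cannot be told apart. Beside these falls, the mean signal of the fibroblast list was 9.51 and 9.42 in tumours, against 7.81 and 7.98 in mucosa, and that of the smooth muscle list was 10.71 and 10.05 in tumours, against 9.24 and 8.46 in mucosa. No tested member of either list was listed at 0 on any of the 4 arrays. What part the tissue make-up has in the falls was not tested.

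Wnt target genes were higher in tumours. All 22 tested members of the target list had positive values, 6 of them rose, and the median was 1.32 log2. Lgr5, the receptor that marks intestinal stem cells, read 10.22 and 10.49 in tumours, against 7.16 and 8.32 in mucosa (2.61 ± 0.48, 6.12-fold, adjusted p = 0.0366). Sox9, a transcription factor of the crypt, read 10.45 and 10.18 in tumours, against 7.19 and 8.22 in mucosa (2.61 ± 0.42, 6.09-fold, adjusted p = 0.0303). For both genes the second mucosa array was over 1 log2 brighter than the first. The adhesion receptor Cd44 read 13.12 and 12.75 in tumours, against 11.03 and 11.33 in mucosa (1.75 ± 0.28, 3.37-fold). Sox4 rose by 1.69 ± 0.36 (adjusted p = 0.0486), and the membrane proteins Ifitm1 and Ifitm3 were the other members called. Of 16 Wnt feedback inhibitors, Notum, a secreted lipase that inactivates Wnt proteins, rose, and 14 had positive values (median 1.36). Notum read 10.96 and 11.55 in tumours, against 9.67 and 9.94 in mucosa (1.46 ± 0.31, 2.74-fold, adjusted p = 0.0486). Axin2, a scaffold of the destruction complex, read 10.13 and 11.69 in tumours, against 9.45 and 9.81 in mucosa, and was not called (1.28 ± 0.48, adjusted p = 0.156). Without the second intact tumour array 3 of the 6 target calls and 0 feedback calls remained.

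Stem cell markers did not move together. Prom1 read 14.31 and 14.30 in tumours, against 12.09 and 12.77 in mucosa (1.87 ± 0.31, 3.66-fold, adjusted p = 0.0309). Smoc2, a matrix protein of the stem cell zone, rose by 1.84 ± 0.37, with 0.98 by its other probe set, and the RNA-binding protein gene Msi1 by 1.41 ± 0.27. Olfm4, another crypt base marker, read 13.80 and 10.48 in tumours, against 11.38 and 12.59 in mucosa, so that the tumour arrays lay on both sides of the mucosa arrays. Sectm1b fell by 1.77 ± 0.34 log2, and 9 of the 14 stem cell genes did not pass. Genes of the fetal-like regenerating epithelium all had positive values, and 5 of 13 rose (median 1.24). The annexin gene Anxa8 read 11.14 and 9.74 in tumours, against 7.15 and 7.30 in mucosa (3.22 ± 0.45, 9.30-fold, adjusted p = 0.0281). Anxa1 read 13.24 and 13.60 in tumours, against 11.52 and 11.58 in mucosa (1.87 ± 0.27, 3.66-fold). Msln (2.20 ± 0.32), Anxa3 (1.99 ± 0.31) and Krt7 also rose, and all 5 calls remained without the second intact tumour array, but 0 without the first deficient tumour array or either mucosa array of either genotype, and 2 without the second deficient tumour array.

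All 28 genes of DNA replication and mitosis had higher means in tumours, with a median of 1.28 log2, but 4 of them rose and 24 did not pass. The 4 were the replication genes Gins1 (1.39 ± 0.27) and Cdc6 (1.29 ± 0.25) and the mitotic genes Tpx2 (1.34 ± 0.25) and Bub1b (1.33 ± 0.27), with adjusted p-values of 0.0367 to 0.0456. Tpx2 had 4 probe sets past the filter, with changes from -0.27 to 1.72. The list median was 1.60 in the first pair of arrays and 0.90 in the second. Mki67 read 11.67 and 11.42 in tumours, against 10.53 and 11.41 in mucosa, so that the second mucosa array nearly reached the tumours. None of the 4 calls remained with quantile normalization or without the second intact tumour array, and 1 remained with a term for spike-in brightness. Of 22 ribosome biogenesis genes, all with positive values (median 0.74), Nop56 rose by 1.32 ± 0.28. Srm, the spermidine synthase of polyamine synthesis, rose by 1.24 ± 0.26.

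Of 13 stomach-type genes 5 rose, while the list median was 0.81. It was 0.45 without the filter and 2.15 with a stricter filter at the 60th percentile of signal, 0.65 with quantile normalization, and 0.68 to 1.40 with 1 array left out, the highest without the first deficient tumour array. Beside Tff2, Gkn3, a gastrokine, read 14.14 and 14.56 in tumours, against 11.23 and 12.18 in mucosa (2.64 ± 0.36, 6.25-fold, adjusted p = 0.0281). Anxa10 read 13.35 and 13.34 in tumours, against 10.82 and 11.18 in mucosa (2.35 ± 0.26, 5.09-fold, adjusted p = 0.0225). The trefoil peptide Tff1 read 12.10 and 11.57 in tumours, against 9.02 and 9.53 in mucosa (2.56 ± 0.54, adjusted p = 0.0474), and the aspartic protease Ctse was the other one called. Genes of the acid-secreting cell and the surface mucin did not share this. Atp4b, a subunit of the gastric proton pump, read 4.03 and 4.53 in tumours, against 6.06 and 6.37 in mucosa (adjusted p = 0.0977), and Muc5ac read 5.10 and 9.32 in tumours, against 7.97 and 7.97 in mucosa. The transcription factor genes Foxa1 (1.48 ± 0.24) and Foxa3 (1.42 ± 0.28) rose, and Hnf4g, a factor of enterocytes, fell by 1.85 ± 0.37 log2. All 5 stomach calls remained without the second intact tumour array, 1 without either intact mucosa array, 2 without the second deficient tumour array and 0 without the first or without either deficient mucosa array.

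Secretory lineages differed in direction, with few calls in each. Of 22 goblet cell genes Fut2 (2.13 ± 0.36), Creb3l4 (2.07 ± 0.38) and the goblet cell factor Spdef (1.35 ± 0.25) rose, with a list median of 0.29. The main mucin Muc2 read 14.05 and 14.10 in tumours, against 14.09 and 13.80 in mucosa, and Tff3 read 14.56 and 14.54 in tumours, against 14.71 and 14.38 in mucosa. Both sets of arrays overlapped. Retnlb, a goblet cell resistin, read 13.77 and 9.35 in tumours, against 6.93 and 7.23 in mucosa, a difference of 4.48 ± 1.60 that did not pass (adjusted p = 0.141). Its tumour arrays lay over 4 log2 apart. Among 18 Reg lectins and antimicrobial products 4 rose (median 1.0). Lcn2, an iron-withholding lipocalin, read 12.74 and 10.74 in tumours, against 7.91 and 9.05 in mucosa (3.26 ± 0.70, adjusted p = 0.0491), with 4.83 in the first pair and 1.68 in the second. The acute-phase gene Saa3 read 11.42 and 10.46 in tumours, against 8.45 and 7.66 in mucosa (2.89 ± 0.56, 7.40-fold, adjusted p = 0.0402), and the protease inhibitor Slpi rose by 1.62 ± 0.31. Ltf was the fourth. The bactericidal lectins Reg3b and Reg3g had differences of -0.05 ± 0.24 and -0.44 ± 0.23. The hormone gene Nts, which encodes neurotensin, fell by 2.08 ± 0.45 log2 among 20 enteroendocrine genes. These had a median of -1.10, with 15 negative values and 11 genes at an unadjusted p under 0.05, while 19 did not pass. The tuft cell gene Avil rose by 2.22 ± 0.34 among 14 (median 0.38). Paneth cell genes had 0 calls by limma among 9, with a list median of -0.04. Of the 9 genes 4 had positive values, among them Nupr1 with 1.08 ± 0.33 (adjusted p = 0.104). Of 8 pancreatic genes the elastase Cela1 rose (1.91 ± 0.35), with a list median of 0.06.

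**Figure D3:**
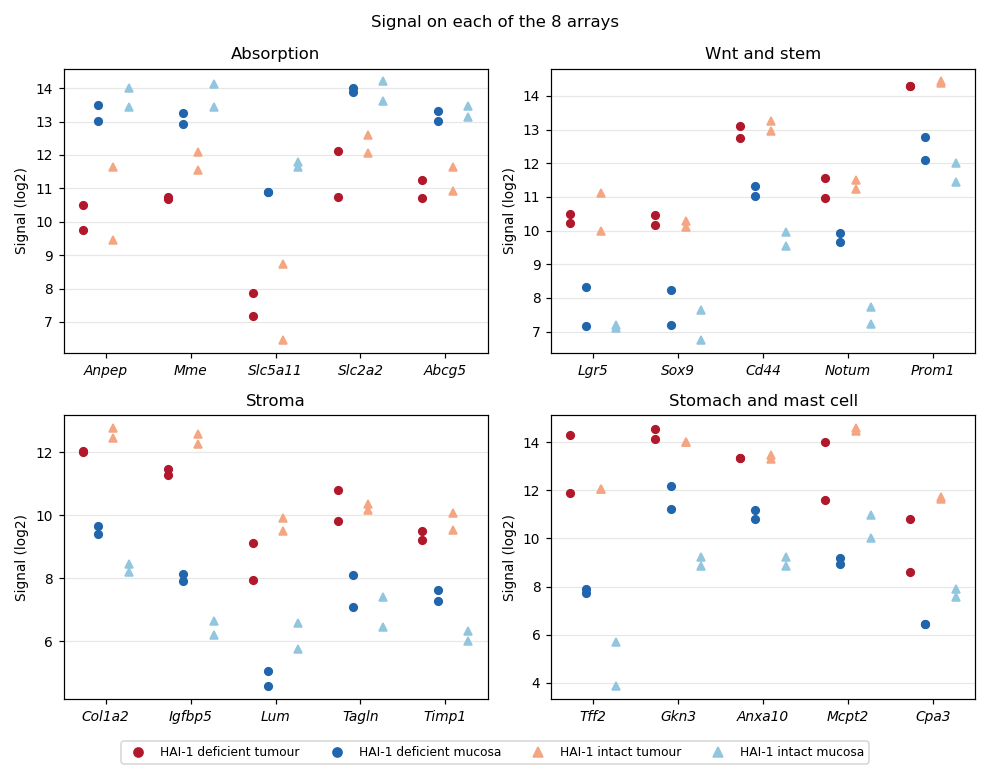
Signal (log2) of 20 genes on all 8 arrays, with HAI-1 deficient mice as circles and HAI-1 intact mice as triangles, tumours in red and mucosa in blue (darker for deficient mice). Tumours lie below mucosa for the absorption genes and above it for the Wnt, stromal, stomach and mast cell genes, and the deficient tumour arrays lie apart for Tff2, Mcpt2 and Cpa3.

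Genes of connective tissue were higher in tumours. Of 24 fibroblast and matrix glycoprotein genes 7 rose and 0 fell, against 2.45% of all genes tested, with a median of 1.33. Igfbp5, a binding protein of insulin-like growth factors, read 11.27 and 11.46 in tumours, against 7.91 and 8.14 in mucosa (3.34 ± 0.27, 10.1-fold, adjusted p = 0.00939). Its dimmer probe set changed by 0.21, so that the mean of both changed by 1.78. Grem1, a secreted BMP antagonist, read 8.67 and 8.69 in tumours, against 5.12 and 4.98 in mucosa, which both lay under the filter value, and rose at least 11.1-fold (adjusted p = 0.0222). The matrix genes Postn (at least 9.98-fold, adjusted p = 0.0281) and Lum (at least 9.95-fold, adjusted p = 0.0254) rose, each with a first tumour array over 1 log2 brighter than the second. Dcn, Fn1 and Sparc were the other 3 called. Fap, a fibroblast activation marker, read 5.59 and 6.03 in tumours, against 6.35 and 6.23 in mucosa and was not called (-0.48 ± 0.39). Without the second intact tumour array 6 of the 7 calls remained.

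Fibrillar collagens rose within a list in which 24 of 25 members had positive values (median 1.19). Col1a2 read 12.04 and 12.01 in tumours, against 9.67 and 9.39 in mucosa (2.50 ± 0.25, 5.65-fold, adjusted p = 0.0222). Col3a1 read 13.04 and 12.90 in tumours, against 11.22 and 10.50 in mucosa (2.11 ± 0.29, 4.33-fold). Col5a2 (2.29 ± 0.27) and Col5a1 (1.32 ± 0.24) rose, whereas Col1a1 read 9.65 and 8.84 in tumours, against 7.45 and 8.14 in mucosa and did not pass (1.45 ± 0.36, adjusted p = 0.0668). Of 22 matrix metalloproteases and inhibitors with a probe set 20 were tested. All 20 had positive values (median 1.23), and 5 rose. Mmp3, the protease stromelysin, read 8.20 and 7.29 in tumours, against 5.23 and 4.76 in mucosa, and rose at least 5.79-fold (adjusted p = 0.0302). The inhibitor Timp1 read 9.49 and 9.21 in tumours, against 7.27 and 7.63 in mucosa (1.91 ± 0.30, 3.75-fold), and Timp2 rose by 1.67 ± 0.32. The macrophage elastase Mmp12 rose at least 3.35-fold, and Mmp11 was the other one called. The protease inhibitor Serpinb5, known as maspin, rose by 1.69 ± 0.29 among 12 plasminogen system genes.

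Smooth muscle genes had a median of 1.65 over 13 members, of which 2 rose. Tagln read 10.81 and 9.83 in tumours, against 8.09 and 7.07 in mucosa (2.74 ± 0.49, 6.68-fold, adjusted p = 0.0346), and Acta2 rose by 1.76 ± 0.38 (adjusted p = 0.0497). In both tissues the first array was the brighter one for these genes. The neuropeptide gene Vip read 7.96 and 8.34 in tumours, against 4.60 and 4.47 in mucosa, and rose at least 7.70-fold (adjusted p = 0.00939). Fstl1, a secreted glycoprotein that binds BMP ligands, rose by 2.12 ± 0.35. Endothelial genes had 0 calls by limma among 17, all with positive values (median 0.57, or 0.92 without the second deficient mucosa array). Genes of epithelial-mesenchymal transition had 0 among 14, with a median of 0.82, or 0.15 with the stricter filter.

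Mast cell genes rose. Of 12 members with a probe set 9 passed the filter and were tested. All 9 had positive values, 4 of them rose, and the median was 3.25 log2, or 2.29 with values under the filter value raised to it. Mcpt2, a protease of mucosal mast cells, read 14.00 and 11.58 in tumours, against 9.20 and 8.93 in mucosa (3.72 ± 0.71, 13.2-fold, adjusted p = 0.039). Cpa3, the mast cell carboxypeptidase, read 10.81 and 8.59 in tumours, against 6.45 and 6.45 in mucosa (3.25 ± 0.62, 9.54-fold, adjusted p = 0.039). The IgE receptor subunit genes Fcer1a (at least 9.45-fold) and Ms4a2 (at least 4.78-fold) rose as well. On every one of these genes the first tumour array was brighter than the second by more than 1 log2. The mean of the list was 10.15 and 8.30 in tumours, against 6.39 and 6.43 in mucosa, and its median change was 4.37 in the first pair and 2.14 in the second. Without the first deficient tumour array, the bright one, 0 of the 4 calls remained, and without the second 4. Without either mucosa array of either genotype 0 remained, and without the second intact tumour array 1.

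Other immune genes divided. Arg1, an arginase of some macrophages, read 9.07 and 8.90 in tumours, against 6.56 and 5.93 in mucosa (2.74 ± 0.40, 6.70-fold, adjusted p = 0.0281). It was the only call among 17 macrophage and monocyte genes, whose median was 0.31. Ptgs2, the inducible cyclooxygenase, read 9.10 and 9.13 in tumours, against 7.25 and 7.43 in mucosa (1.78 ± 0.33, 3.43-fold, adjusted p = 0.0373), while Hpgd, which breaks prostaglandins down, read 10.97 and 11.07 in tumours, against 12.85 and 13.70 in mucosa (-2.25 ± 0.43, adjusted p = 0.039). The chemokine Ccl5, made by T cells, read 9.68 and 9.43 in tumours, against 11.40 and 10.89 in mucosa (-1.59 ± 0.28, adjusted p = 0.0338). Cd8a, a marker of cytotoxic T cells, fell by 1.38 ± 0.26 log2 in a list of 14 T and natural killer cell genes with a median of -0.92, though its 4 probe sets ranged from -2.56 to 0.22. H2-DMa, which helps load MHC class II, fell by 1.45 ± 0.28 log2 among 8 such genes (median -0.92). The gut-homing chemokine Ccl25 fell by 1.33 ± 0.25 log2 at its brighter probe set and changed by 0.01 at the other. Of 30 inflammatory cytokine and chemokine genes Ptgs2 rose, Ccl5 and Ccl25 fell and 27 did not pass (median 0.36). Interferon-induced genes had 0 calls by limma among 23 members and a median of 0.10, which was -0.13 with quantile normalization. Neutrophil genes had 0 calls by limma among 10, with a median of 0.74, or -0.02 without the second deficient mucosa array. B and plasma cell genes had 0 among 11 (median -0.02). All 13 MHC class I genes had negative values and 0 were called, with a median of -0.56, or -1.04 and -0.20 without the first and the second deficient tumour array.

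Genes of the HAI-1 protease network had a median change near that of all genes. Of 17 genes of HAI-1, its target proteases and hepatocyte growth factor signalling, 0 passed by limma, against 4.2% of all genes tested. The median was 0.16, against 0.18 for all genes. Matriptase, St14, read 12.72 and 12.98 in tumours, against 13.22 and 12.93 in mucosa (-0.22 ± 0.26), and the receptor Met read 10.75 and 10.77 in tumours, against 10.74 and 10.70 in mucosa (0.04 ± 0.23). Prostasin, Prss8, had a difference of 0.13 ± 0.27, and the related inhibitor Spint2 one of -0.16 ± 0.25. Hgfac, the activator of hepatocyte growth factor, read 10.99 and 10.98 in tumours, against 9.89 and 9.32 in mucosa, at an adjusted p of 0.0653 (1.38 ± 0.34). The receptor Egfr differed by 1.02 ± 0.23 at its brightest probe set (adjusted p = 0.0545), while its 5 probe sets past the filter ranged from -0.05 to 1.02. Both genes passed the threshold with the stricter filter (adjusted p = 0.0343 for Hgfac and 0.0287 for Egfr). Tight junction and desmosome genes had 0 calls by limma among 22 (median -0.15).

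The same comparison in HAI-1 intact mice called 3777 genes, or 28.8%, of which 2775 rose (21.2%) and 1002 fell (7.64%). It shares no array with the comparison in deficient mice, but both used the same spread per gene from 1 fit. The 2 sets of calls are therefore not independent. Of the 321 rises in deficient mice 309 were also rises in intact mice, or 96.3% of the deficient and 11.1% of the intact rises. Of the 230 falls 204 were shared, or 88.7% of the deficient and 20.4% of the intact falls. The spread of changes over all genes was narrower in deficient mice, with an interquartile range of 0.86 log2, against 1.28 in intact mice. At least 1 log2 of change was seen for 2331 genes in deficient mice, against 4261 in intact mice. Array quality differed too. Spike-in controls read 6.69 and 6.36 on the intact tumour arrays, against 7.12 and 8.48 on the intact mucosa arrays. The second intact tumour array had the Gapdh ratio of 25.9. What part this has in the differences between genotypes was not tested. Genes called higher in deficient mice had a median change of 1.72 in deficient and 2.57 in intact mice, whereas those called lower had -1.77 in deficient and -1.82 in intact mice. Genes chosen by their call in intact mice had medians of 0.88 in deficient and 1.66 in intact mice for rises, and of -0.89 and -1.46 for falls. A larger value is favoured in whichever comparison chose the genes, and the choice by deficient calls still gave larger rises in intact mice. With values raised to the filter value these rises had medians of 1.69 in deficient and 2.48 in intact mice. The test of the difference itself, the interaction of tissue and genotype, called 0 genes by limma, or 0%, with 1211 genes at an unadjusted p under 0.05 and a smallest adjusted p of 0.18. No gene can thus be said to change in one genotype alone.

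**Figure D4:**
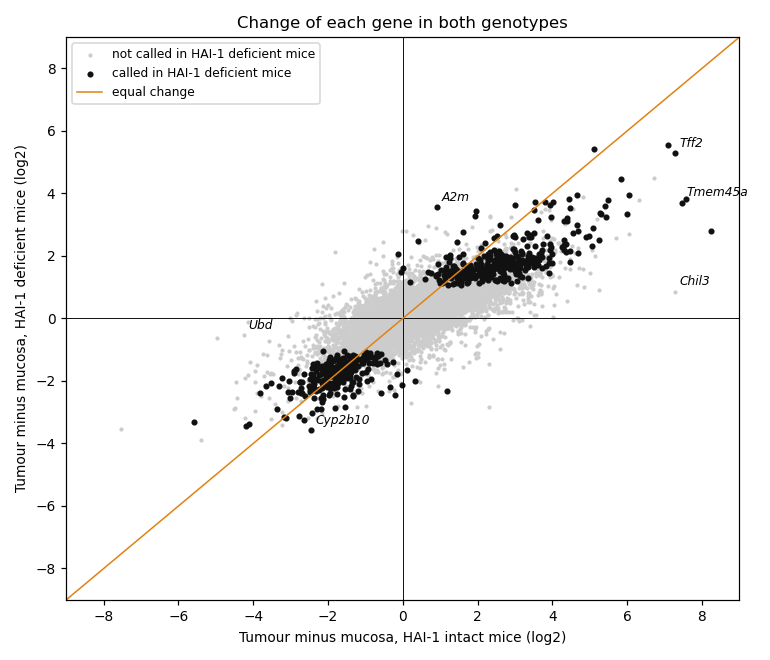
Change between tumour and mucosa of each of the 13119 genes in HAI-1 deficient mice (vertical axis, log2) against that in HAI-1 intact mice (horizontal axis, log2), with the genes called in deficient mice in black and equal change as an orange line. Most black points on the right lie below the line, where the rise was smaller in deficient mice, and those on the left lie around it.

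The genes with the smallest interaction p were mostly those whose rise was smaller in deficient mice. For Tmem45a, Acot1 and Ncmap the tumours of both genotypes read alike, and the mucosa was brighter in deficient mice. Acot1 averaged 9.11 in deficient and 9.16 in intact tumours, against 8.89 in deficient and 5.75 in intact mucosa. The tumours of Fgfr1 differed as well, with means of 7.16 in deficient and 8.01 in intact mice. Tmem45a changed by 3.71 in deficient and at least 5.53 in intact mice, where both mucosa arrays lay under the filter value, so that the difference was at least 1.82 in size (adjusted p = 0.18 for the fitted values). Ncmap changed by 2.52 in deficient and at least 4.64 in intact mice, where both mucosa arrays were again under the filter value. Acot1, an acyl-CoA thioesterase, changed by 0.22 in deficient and 3.41 in intact mice (-3.18 ± 0.36), and Fgfr1, a fibroblast growth factor receptor, by 0.22 and at least 2.75, with 1 intact mucosa array under the filter value. Chil3, a chitinase-like gene of macrophages, read 7.54 and 6.78 in deficient tumours, against 6.32 and 6.29 in deficient mucosa, while both intact mucosa arrays lay under the filter value. In the opposite direction, Ubd, a ubiquitin-like modifier, changed by -0.53 in deficient and -4.25 in intact mice (3.72 ± 0.66, adjusted p = 0.254). It averaged 6.42 in deficient and 11.32 in intact mucosa, and 5.89 in deficient and 7.07 in intact tumours. Plaat3 changed by 0.67 in deficient and -1.28 in intact mice (1.95 ± 0.35). The 3 others with a positive difference were Cbx3, Mycbpap and Tmem126b, and for Cbx3 and Tmem126b both intact tumour arrays lay under the filter value.

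Called in deficient but not in intact mice were 12 rises and 26 falls, 38 of the 551 genes. By size A2m came first, with 3.57 ± 0.66 in deficient and 0.91 ± 0.66 in intact mice (difference 2.66 ± 0.93, unadjusted p = 0.0225, adjusted p = 0.479). Its signal in intact mice was 6.66 and 8.52 in tumours, against 6.36 and 6.99 in mucosa, so that the second intact tumour array lay above the mucosa and the first between its arrays. Ltf changed by 3.45 in deficient and 1.97 in intact mice (adjusted p = 0.0454 and 0.0732). Clca3a1, a chloride channel accessory protein, read 8.07 and 7.35 in deficient tumours, against 9.64 and 10.66 in deficient mucosa (-2.44 ± 0.40, adjusted p = 0.0306), while intact tumours read 8.13 and 8.14, against 8.14 and 8.57 in intact mucosa. The difference between the genotypes was -2.23 ± 0.57 (adjusted p = 0.314). Gstp3, a glutathione transferase, changed by -1.64 ± 0.27 in deficient and 0.11 ± 0.27 in intact mice (adjusted p of the difference 0.269), and Mttp by -1.34 and -0.74. These genes were picked out by their calls, and none of their differences between genotypes passed the test.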

How the data were processed

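RNA was measured on 8 arrays, 2 per group. The deposited table holds log2 values made by the authors, 1 per probe set and array. MAS5 and RMA are named, per the submitters' processing notes, with no version or role; the array means, trimmed by 2% at either end, all lay at 500.003 to 500.004 on the linear scale, and each array had 313 to 762 values of 0. Low values of this kind have large log2 errors. No further scaling was applied.

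Of 45101 probe sets, 34958 had a single gene in the platform annotation, 920 several and 9211 none, and 34754 matched RefSeq (GRCm38.p6). Probe sets with a mean under the 40th percentile (5.20 log2, 36.8 linear) were removed and the brightest per gene kept. Detection calls were not used. All 8 arrays entered 1 linear model of group means (limma 3.58.1, R 4.3.3; 4 residual and 3.52 prior degrees of freedom; two-sided tests, Benjamini-Hochberg over 13119 genes). The fit was tested on simulated data. Where an array lay under the filter value, folds take it at that value and are lower bounds. Python 3.11.15 and matplotlib 3.10.9 drew figures. Arrays with the same number did not deviate together in deficient mice (r = 0.008; 0.109 in intact mice), so numbers were not taken as pairs.

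Spint1 and Apc were always named. The rules for other genes took the 15 largest rises and falls among called genes of at least 1 log2 without overlap of arrays. They also took up to 4 called members per direction of each of 54 lists (others in counts). Where a list had none they took the 2 smallest p, and for the interaction the 5 smallest p in each direction. Some called members, and most of the smallest-p genes of lists without calls, were then left out of the text. Among the latter were H2-Q2 (-1.55 ± 0.34, limma, adjusted p = 0.0504), Zeb1 (1.23 ± 0.28, 0.0527), Per2 (-1.61 ± 0.38, 0.0602) and Cldn2 (1.15 ± 0.28, 0.0631). Further genes, such as Lct, Alpi, Slc38a3, Olfm4, Mki67, Axin2, Retnlb, Col1a1, Fap, Muc2, Tff3, Atp4b, Muc5ac, Cyp1a1, Cyp1b1, Reg3b, Reg3g, St14, Met, Prss8, Spint2 and those set out for a call in deficient but not in intact mice, were picked after their values were seen. Members and lists were chosen with earlier results of these data known.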

Additional observations from a re-analysis of the deposited data

How the results depend on the processing

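In the comparison of tumours with mucosa in HAI-1 deficient mice, the count of 551 called genes was 959 with the filter at the 60th percentile, 0 without a filter, 0 with only the groups compared, 972 when limma used a mean-variance trend and 1000 with values raised to the filter value. It was 416 with quantile normalization, 392 with the mean of probe sets and 406 with a term for spike-in brightness. With the replicate number as a replicate block it was 0, and all 551 genes then had an adjusted p under 0.1. Leaving out 1 array at a time gave 0 to 346. The 551 genes kept their sign in each of these fits in which they were tested. In most of the fits it could not change, because the fitted change was the same or the arrays of the 2 tissues did not overlap. In HAI-1 intact mice the count of 3777 was 2464 without a filter and 1945 to 3767 with 1 array left out. The interaction had 0 calls under every alternative run. Where fewer samples entered a fit, fewer degrees of freedom were left. Otherwise the cause was not tested. With 2 arrays per group and no detection calls, dim genes and changes under 1 log2 are not resolved. Where 1 array of a group was left out, the lone array was assumed to vary like the other groups. The replicate block left each fitted change as it was, so it could change no direction.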

Other observations

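Groups of called genes outside the lists above are given here as values. They were picked after their values were seen, so they carry no test as groups. Genes of plasma proteins made mainly by liver were among the rises in tumours of HAI-1 deficient mice. Lrg1, a glycoprotein of the acute phase, read 12.20 and 11.68 in tumours, against 8.87 and 9.06 in mucosa (2.98 ± 0.54, 7.88-fold, limma, adjusted p = 0.0356). Hp, haptoglobin, read 8.73 and 10.02 in tumours, against 6.61 and 6.52 in mucosa (2.81 ± 0.60, adjusted p = 0.0486), and changed by at least 4.65 in HAI-1 intact mice, where both mucosa arrays lay under the filter value. The difference between genotypes for Hp, at least 1.84 in size, did not pass (adjusted p = 0.254 for the fitted values). Coagulation factor F5 rose 5.01-fold, the complement regulator Cfi 4.16-fold, transthyretin Ttr 4.24-fold, ceruloplasmin Cp 3.40-fold and the endotoxin-binding Lbp 3.36-fold. Albumin, Alb, was at least 6.89-fold and the hepatokine Fgl1 at least 4.0-fold higher. All of these lay higher on both tumour arrays than on both mucosa arrays, as did every gene called higher.

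Enzymes of the peroxisome and of fructose and glucose handling were among the falls. Cat, catalase, read 11.35 and 10.91 in tumours, against 12.62 and 13.53 in mucosa (-1.94 ± 0.35, 3.85-fold lower, adjusted p = 0.0342). Ephx2, an epoxide hydrolase, read 10.89 and 11.69 in tumours, against 13.52 and 13.50 in mucosa (-2.22 ± 0.37). Dao, D-amino acid oxidase, fell 5.40-fold, the thiolase Acaa1a 4.24-fold and Pipox, which breaks down pipecolic acid, 3.18-fold. Khk, the kinase that starts fructose breakdown, read 10.73 and 11.53 in tumours, against 13.30 and 13.06 in mucosa (-2.04 ± 0.31, 4.13-fold lower, adjusted p = 0.0287). Mlxipl, the carbohydrate-responsive factor ChREBP, fell 3.51-fold, and the glucose-6-phosphate transporter gene Slc37a4 2.86-fold. Fbp1 and Acaa1b are described above with the largest falls and the fatty acid genes.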
